A study of Mus musculus with 6 samples.

Results

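The genes described here are p53 itself, its regulators, its transcriptional targets and the genes of mitochondrial apoptosis, taken by symbol from a list of 33 genes. Of these, 30 had a probeset with a symbol of their own among the 19938 genes compared. Cdkn1a was annotated only on a probeset shared with 4930567H12Rik, which is given apart and enters no count. Trp53 and Bax were not analysed here. The arrays measured RNA of mouse embryonic stem (ES) cells with the 2C::tomato reporter, with 3 samples of sorted reporter-positive cells and 3 of sorted reporter-negative cells, numbered 1 to 3 in each group. All 6 are labelled as wild type and were grown on gelatin. The protocol also names vehicle or 4OHT, given to delete Kdm1a, and does not say which of these the wild-type cells received. The reporter is known to place the fluorescent protein under a retroviral promoter of the early embryo, so that few cells of an ES culture carry it at any one moment. Each sample is a sorted population, so that fewer cells expressing a gene and less RNA per cell cannot be told apart.

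The transcription factor p53 is held low by Mdm2 and Mdm4 and is stabilised after DNA damage or other stress. It then switches on genes for cell cycle arrest, DNA repair and cell death, together with Mdm2, which closes a feedback loop. The death branch runs through BH3-only proteins that free Bax and Bak at the mitochondrion, after which cytochrome c, Apaf1 and caspase 9 form the apoptosome. Published work in mouse ES cells has linked p53 to the entry of cells into the state that resembles the two-cell embryo, and the question for these genes was whether their RNA differed between reporter-positive and reporter-negative cells.

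The probeset levels are log2 values as the authors normalized them, and every difference is positive minus negative. Array medians lay between 6.95 and 7.04, arrays correlated across genes at r between 0.969 and 0.995, and Kdm1a lay between 10.91 and 11.25 on the 6 arrays. Pluripotency genes were high on every array, with a mean log2 level over 18 genes of 11.58 to 12.05 in positive and 11.76 to 12.11 in negative arrays. Two-cell-stage genes were higher in positive arrays for 15 of 16 measured genes, with a median log2 difference of 3.28, and with medians of 2.59, 5.79 and 1.27 in pairs 1, 2 and 3. Published use of the reporter and earlier results of these data shaped that list. The arrays numbered 2 stood apart from numbers 1 and 3 in both groups. The deviation of positive array 2 from its group mean correlated across genes with that of negative array 2 at r = 0.553. With those of negative arrays 1 and 3 it correlated at -0.434 and -0.406. Positive array 1 with negative array 3, and positive array 3 with negative array 1, correlated at 0.202 and 0.201. Deviations cancel out within a group, so some negative values are forced. Values without 1 or both arrays numbered 2 are given beside many of the results.

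Sequences of 4 promoters are shown because they hold the DNA letters that p53 is known to bind. The p53 response element consists of a pair of half-sites of 10 bases each, and the half-site consensus is its own reverse complement, so both strands were searched at once. RefSeq promoter windows, from 250 bases before to 50 after a transcription start in GRCm38.p6, were found for 25 of the 33 genes, and 11 of these 25 (44%) held at least 1 half-site. Over all 27025 genes with a window the share was 9.55%. By window it was 33.3% of 36 for the listed genes and 8.36% of 32851 over all. Of the 22 measured genes with a window, 8 (36.4%) held a half-site. Many of the genes were listed as known p53 targets, so the higher share is not a separate result. A full element, with at most 13 bases between half-sites, stood in 1 of the 25 genes, Cdkn1a, and in 20 of all genes. Each line below gives 100 bases from before the start, 5′ to 3′ on the gene's own strand, with the half-sites in capitals.
Mdm2: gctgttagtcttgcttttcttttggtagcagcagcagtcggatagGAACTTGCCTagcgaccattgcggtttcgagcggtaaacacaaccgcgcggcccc
Sesn1: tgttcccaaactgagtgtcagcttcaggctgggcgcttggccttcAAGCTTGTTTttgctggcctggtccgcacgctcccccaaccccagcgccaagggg
Ei24: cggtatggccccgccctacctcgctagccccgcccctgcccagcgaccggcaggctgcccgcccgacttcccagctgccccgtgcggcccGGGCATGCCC
Cdkn1a: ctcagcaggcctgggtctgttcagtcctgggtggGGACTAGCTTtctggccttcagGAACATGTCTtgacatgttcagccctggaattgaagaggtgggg
The stretches lie at chr10:117710890-117710989 (minus strand) for Mdm2, chr10:41887221-41887320 (plus strand) for Sesn1, chr9:36797335-36797434 (minus strand) for Ei24 and chr17:29090872-29090971 (plus strand) for Cdkn1a. Sesn1 and Cdkn1a each have 2 windows in the table, and the half-sites stood in 1 of them. The marked Cdkn1a half-sites are 12 bases apart. The 10 bases right after the second of them miss the half-site consensus only at their first base, so the exact search did not mark them. Which of these stretches p53 binds was not tested. Half-sites also stood in windows of Aen, Ccng1, Gadd45a, Gtse1 and Polk and in those of Trp53 and Bax, and none was found in those of Eda2r, Sesn2, Btg2 or Plk2. A match of letters is a description and not a binding site, and no match speaks only of these windows.

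Most p53 targets and regulators were slightly higher in reporter-positive cells, and none passed the test. Of the 30 measured genes 22 were higher and 8 lower, with a median log2 difference of 0.15, against -0.04 over all genes. Their mean log2 level was 9.68, 9.86 and 9.56 in positive arrays 1, 2 and 3 and 9.50, 9.70 and 9.49 in the negative ones. Array 2 was highest in both groups, and each positive array lay above the negative array of its number. The largest differences were those of Btg2, an antiproliferative p53 target, at 0.62 (SE 0.44, n = 3 and 3), and of Eda2r, a death receptor of the TNF receptor superfamily, at 0.51 (SE 0.15). No gene of the list was 2-fold apart, as 0.527% of all genes were. With limma, 0 of the 30 had an adjusted p under 0.05, as had 0% of all 19938 genes (smallest adjusted p 0.910), and the adjusted p-values of the 30 lay between 0.910 and 0.998.

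Compared by same-numbered pairs, 13 of the 30 genes were higher in positive cells in all 3 pairs: Mdm2, Mdm4, Btg2, Gtse1, Plk2, Tnfrsf10b, Eda2r, Ei24, Trp53inp1, Sesn1, Sesn2, Zmat3 and Ddb2. That was 43.3% of the list, where 15.1% of all genes were higher in all 3 pairs. Bbc3 alone was lower in all 3 pairs, or 3.33%, where 23.7% of all genes were. Dim genes leaned downward on these arrays, with 39.8% of all genes but 51.7% of those above the median level higher in positive cells, and 29 of the 30 lay above the median gene by mean level. Among all genes above that median, a comparison added after the data were seen, 22.1% were higher and 15.2% lower in all 3 pairs, with a median difference of 0.01. By pair the median difference of the list was 0.23, 0.13 and 0.07, and without both arrays numbered 2 it was 0.14.

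**Figure D1:**
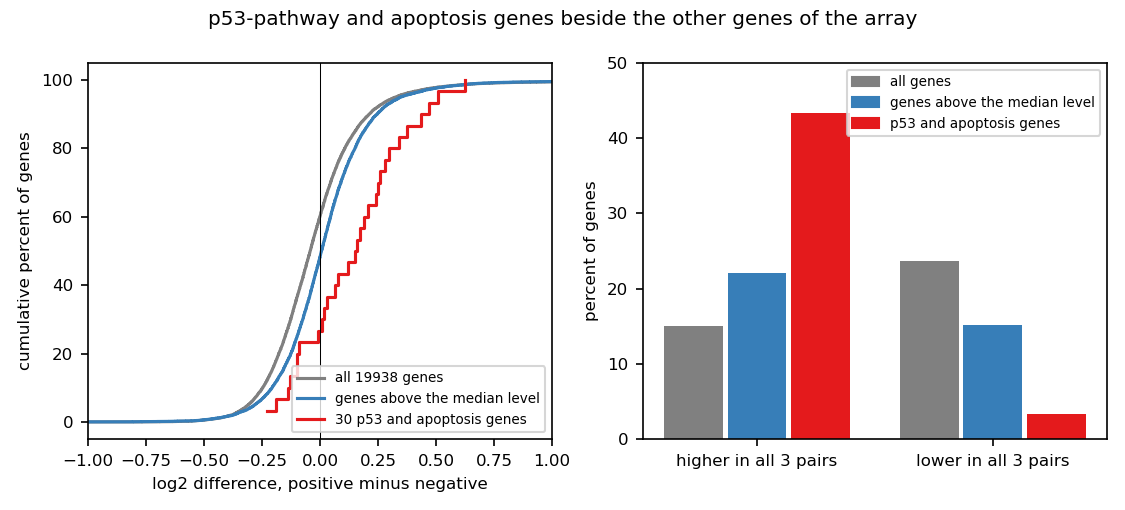
Left, the cumulative percent of genes (y axis) by log2 difference, positive minus negative (x axis, cut at 1 in both directions), for all genes, the genes above the median by mean level and the 30 p53-pathway and apoptosis genes. Right, bars give the percent of each set that was higher, or lower, in all 3 same-numbered pairs. The red curve lies to the right of the others through most of its range, and its bars stand at 43.3% and 3.33%.

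Without the replicate number in the fit, Eda2r and Sesn2, 2 of the 30 genes, were higher at an unadjusted limma p under 0.05, and none was lower. Over all genes 1.95% were higher and 2.46% lower by that rule. Of the 9969 genes above the median level, 236 were higher and 100 lower by it. With the replicate number as a block, 10 of the 30 reached an unadjusted limma p under 0.05 upward and 0 downward. In that fit 5.4% of all genes were higher and 6.61% lower. Of the 9969 genes above the median level, 742 were higher and 363 lower in it. The 10 were Mdm4, Btg2, Plk2, Eda2r, Ei24, Trp53inp1, Sesn1, Sesn2, Zmat3 and Ddb2. None passed after adjustment with the block either, and the smallest adjusted p of the list was 0.396, that of Eda2r, against 0.363 over all genes. The plot of differences by role shows the 3 pairs of each gene.

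**Figure D2:**
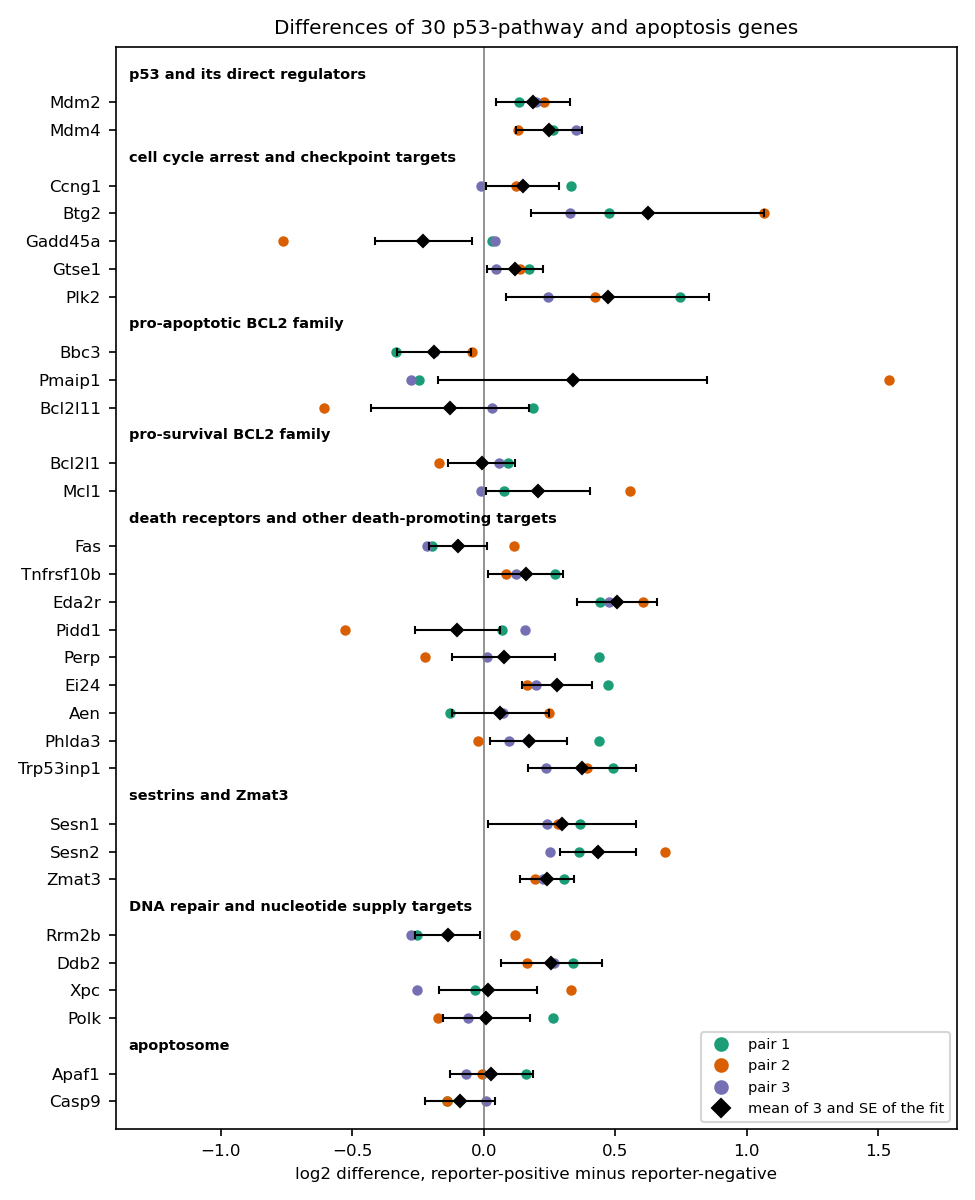
The x axis gives the log2 difference, positive minus negative, and each row is 1 of the 30 genes, grouped by role. Coloured points are the same-numbered pairs 1, 2 and 3, and black diamonds with bars are the mean over 3 arrays against 3 and the standard error of the limma fit. The 3 points of Eda2r, Sesn2, Zmat3 and Trp53inp1 all lie to the right of 0, while the points of Pmaip1, Gadd45a and Bcl2l11 lie on both sides.

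Mdm2 and Mdm4, the inhibitors of p53, were both higher in positive cells in every pair. Mdm2, the ubiquitin ligase that marks p53 for degradation and is itself a target (probeset 10372668), stood at 11.27, 11.56 and 11.22 in positive arrays 1, 2 and 3 and at 11.13, 11.33 and 11.02 in the negative ones. Array 2 was the highest in both groups, and the groups overlapped. The log2 difference was 0.19 (SE 0.14, limma adjusted p = 0.912), with 0.13, 0.23 and 0.20 in the pairs, and it was 0.08 without positive array 2. Mdm4, a relative of Mdm2 that binds and blocks p53 (probeset 10357773), stood at 11.00, 10.71 and 11.02 in positive and at 10.74, 10.58 and 10.66 in negative arrays. Here array 2 was the lowest in both groups, and positive array 2 lay within the range of the negative arrays. Mdm4 differed by 0.25 (SE 0.12, limma adjusted p = 0.910), and by 0.20 to 0.35 when 1 array was left out.

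The probeset that carries both Cdkn1a, the p21 inhibitor of cyclin-dependent kinases, and 4930567H12Rik cannot be assigned to either gene. It read 11.22, 11.57 and 10.81 in positive and 10.64, 11.65 and 10.82 in negative arrays. The groups overlapped fully, and the highest value was in a negative array. Its difference was 0.16 (SE 0.31, limma adjusted p = 0.968 over all probesets), made up of 0.58 in pair 1, -0.09 in pair 2 and -0.0057 in pair 3.

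Of the other targets linked to cell cycle arrest and checkpoints, 4 of 5 were higher, 3 of them in every pair, with a median of 0.15. Of all genes 15.1% were higher in every pair, and of those above the median level 22.1%. Btg2 (probeset 10357875) stood at 9.58, 11.00 and 9.42 in positive and at 9.10, 9.93 and 9.10 in negative arrays. Both arrays numbered 2 lay well above the others of their group, and negative array 2 lay above positive arrays 1 and 3. The pairs differed by 0.48, 1.07 and 0.33, the overall difference of 0.62 had a limma adjusted p of 0.910, and it was 0.12 without positive array 2 and 0.90 without negative array 2. Without both of them it was 0.40.

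Plk2, a polo-like kinase induced by stress (probeset 10407126), stood at 8.47, 9.29 and 8.13 in positive and at 7.72, 8.87 and 7.89 in negative arrays. The same arrays were high as for Btg2. Its difference was 0.47 (SE 0.39, limma adjusted p = 0.917), with 0.75, 0.42 and 0.25 in the pairs, and it ranged from 0.14 without positive array 2 to 0.83 without negative array 2. Gtse1, a protein of the S and G2 phases that binds p53, differed by 0.12 (SE 0.11), and its pairs by 0.17, 0.14 and 0.05. Ccng1, cyclin G1, differed by 0.15 (SE 0.14), of which 0.33 came in pair 1 and -0.01 in pair 3. Gadd45a, a growth arrest gene, was the exception with -0.23 (SE 0.19): its pairs differed by 0.03, -0.76 and 0.05, and without both arrays numbered 2 it differed by 0.04.

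Cell cycle and immediate-early genes are given beside this group, and 0 genes of either list passed the limma test. Over all 19938 genes 7926 were higher and 12007 lower, with 15.1% of all genes higher and 23.7% lower in every pair. Of 15 mitosis genes 13 were higher in positive cells, 11 in every pair, with a median of 0.14 and mean levels of 11.67 to 11.88 in positive and 11.56 to 11.63 in negative arrays. Of 12 immediate-early genes 10 were lower, 5 in every pair, with a median of -0.25 and mean levels of 8.76 to 9.24 in positive and 8.90 to 9.74 in negative arrays. By pair, 5, 1 and 4 of the 12 were higher. Their part in the values of Gtse1, Btg2 and Plk2 was not tested.

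**Figure D3:**
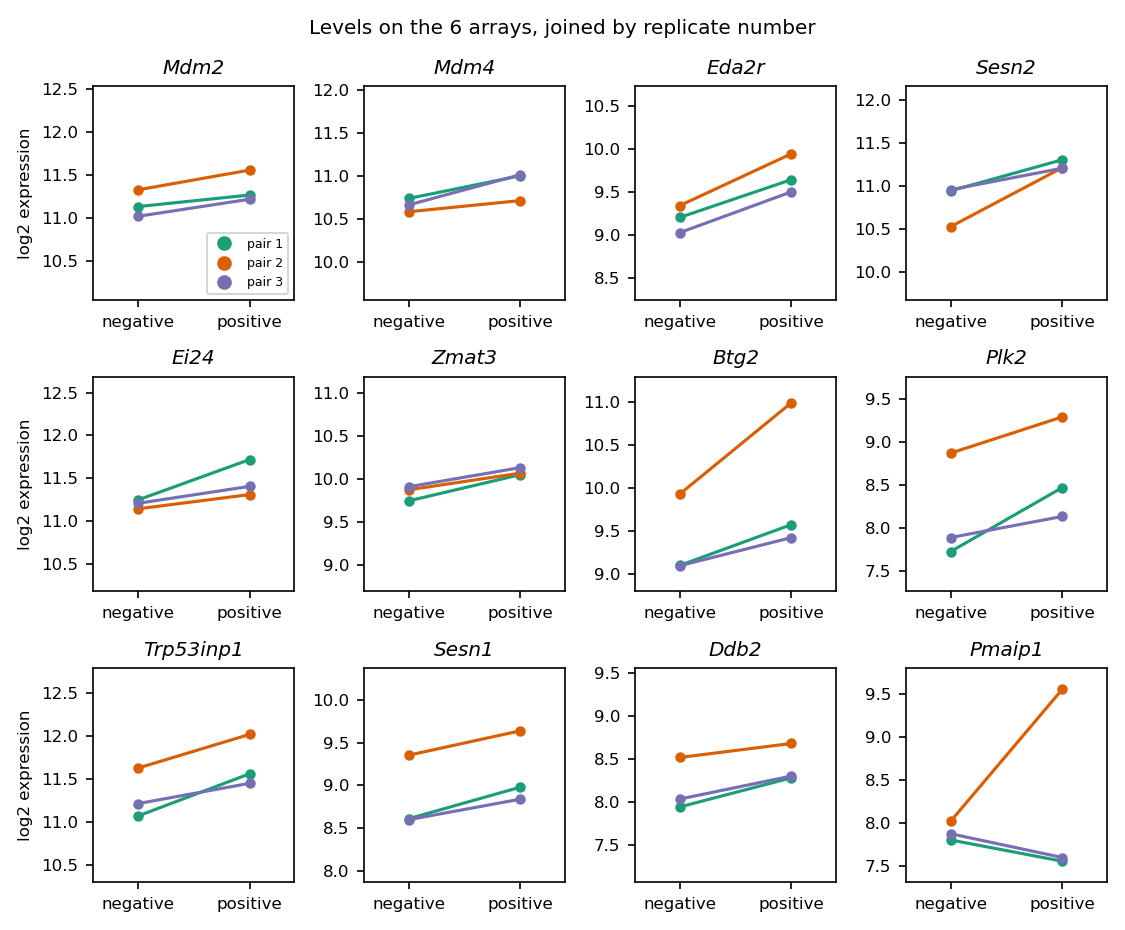
Each panel gives the log2 expression (y axis, the same span in every panel) of 1 gene in negative and positive arrays (x axis), with lines joining arrays of the same replicate number. Lines of Eda2r, Sesn2, Ei24 and Zmat3 run upward with all positive points above all negative ones. The line of pair 2 stands alone for Btg2, Plk2 and Sesn1, and for Pmaip1 only its positive end stands apart.

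Among receptors and other death-promoting targets, 7 of 9 were higher and 4 of them in every pair, with a median of 0.16. The share higher in every pair was 15.1% over all genes and 22.1% above the median level. Eda2r, the receptor for ectodysplasin A2 (probeset 10605874), stood at 9.64, 9.94 and 9.50 in positive and at 9.20, 9.34 and 9.02 in negative arrays. Every positive array lay above every negative one. Positive arrays averaged 9.70 ± 0.23 (SD, n = 3) and negative arrays 9.19 ± 0.16 (SD, n = 3), a 1.42-fold distance. Its pairs differed by 0.44, 0.60 and 0.48, and the difference stayed between 0.38 and 0.60 when any 1 array was left out. The limma adjusted p was 0.910.

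Ei24, an endoplasmic reticulum protein first described as a p53-induced gene (probeset 10592237), stood at 11.72, 11.31 and 11.41 in positive and at 11.25, 11.14 and 11.21 in negative arrays. Again no positive array fell among the negative ones, though positive array 2 and negative array 1 were close. The difference was 0.28 (SE 0.13, limma adjusted p = 0.910), and 0.16 without positive array 1. Eda2r, Ei24, Sesn2 and Zmat3 were the 4 of 30 genes without overlap, all of them higher. The share without overlap among all genes was 4.08% upward and 7.15% downward. Of the 9969 genes above the median level, 534 lay without overlap upward and 354 downward.

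Trp53inp1, a stress protein that acts with p53 and in autophagy (probeset 10503259), stood at 11.56, 12.02 and 11.45 in positive and at 11.07, 11.63 and 11.21 in negative arrays. Negative array 2 lay above positive arrays 1 and 3, so the groups overlapped although each pair ran upward, by 0.49, 0.39 and 0.24. The difference of 0.37 (SE 0.21) had a limma adjusted p of 0.910, and it was 0.20 without positive array 2 and 0.54 without negative array 2. Tnfrsf10b, the mouse receptor for the death ligand TRAIL, differed by 0.16 (SE 0.14), and its pairs by 0.27, 0.08 and 0.12. Without positive array 2 it differed by 0.08, and without negative array 2 by 0.27. Phlda3, an inhibitor of Akt, differed by 0.17 (SE 0.15), Perp, a membrane protein of p53-dependent death, by 0.08 (SE 0.20), and Aen, an apoptosis-enhancing nuclease, by 0.06 (SE 0.19), each with pairs of both signs. Fas, the receptor of Fas ligand, was the one gene of the list below the median gene level, at 5.03 to 5.24, and differed by -0.10 (SE 0.11). Pidd1, the scaffold that activates caspase 2, also differed by -0.10 (SE 0.16), with -0.53 in pair 2 against 0.07 and 0.16 in the others.

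The sestrins, stress-induced inhibitors of mTORC1, were listed together with Zmat3, an RNA-binding zinc finger protein. Each of these 3 genes was higher in every pair and reached an unadjusted limma p under 0.05 with the block. Over all genes 15.1% were higher in every pair, and 5.4% were higher at that p. The lists were chosen with earlier results of these data known, so the 3 genes are not read as a group. Sesn2 (probeset 10516932) stood at 11.31, 11.22 and 11.21 in positive and at 10.95, 10.53 and 10.96 in negative arrays. The positive arrays lay close together, with an SD of 0.06, and above all the negative ones, of which array 2 was low. The difference was 0.43 (SE 0.14, limma adjusted p = 0.910), with 0.36, 0.69 and 0.25 in the pairs, and it was 0.29 without negative array 2. Sesn2 is also known as a target of ATF4 in the unfolded protein and amino acid responses.

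Sesn1 (probeset 10362811) stood at 8.98, 9.64 and 8.84 in positive and at 8.61, 9.35 and 8.60 in negative arrays. Both arrays numbered 2 were the high ones, as for Btg2 and Plk2, and the groups overlapped. The pairs differed by 0.37, 0.28 and 0.24, while the difference of 0.30 (SE 0.28, limma adjusted p = 0.917) was 0.05 without positive array 2 and 0.55 without negative array 2. Zmat3 (probeset 10497673) stood at 10.05, 10.07 and 10.14 in positive and at 9.75, 9.88 and 9.91 in negative arrays. No array of one group lay within the other, and both groups were tight, with an SD of 0.04 and 0.09. The difference of 0.24 (SE 0.10, limma adjusted p = 0.910) lay between 0.19 and 0.27 when any 1 array was left out.

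In the BCL2 family 2 of 5 genes were higher and 3 lower. Bbc3, which encodes the BH3-only protein PUMA, stood at 7.89, 7.97 and 8.18 in positive and at 8.22, 8.02 and 8.37 in negative arrays. It was lower in each pair, by -0.33, -0.05 and -0.19, though the groups overlapped, and its difference of -0.19 (SE 0.14) did not pass (limma adjusted p = 0.910). Pmaip1, which encodes the BH3-only protein NOXA (probeset 10456357), stood at 7.55, 9.56 and 7.60 in positive and at 7.80, 8.02 and 7.87 in negative arrays. A single array, positive 2, was far above the rest, and the other positive arrays lay below all negative ones. Its difference of 0.34 (SE 0.51, limma adjusted p = 0.954) became -0.32 without that array.

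Bcl2l11, which encodes BIM, showed the opposite at the same array: its pairs differed by 0.19, -0.61 and 0.03, and its difference of -0.13 (SE 0.30) became 0.23 without positive array 2. Of the pro-survival genes, Mcl1 differed by 0.21 (SE 0.20), with 0.55 in pair 2 against 0.08 and -0.01 in pairs 1 and 3, and Bcl2l1, which encodes BCL-XL, by -0.01 (SE 0.13). Apaf1 and Casp9, the core of the apoptosome, differed by 0.03 (SE 0.16) and -0.09 (SE 0.13), and neither kept 1 sign over the pairs. Among these 7 genes of the mitochondrial route 0 were higher and 1 was lower in every pair, too few genes to set apart from the 15.1% and 23.7% of all genes. None passed the test in limma with or without the replicate block.

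Of the targets in DNA repair and nucleotide supply, Ddb2, a sensor of ultraviolet damage in nucleotide excision repair (probeset 10484999), was higher in every pair. It stood at 8.28, 8.68 and 8.30 in positive and at 7.94, 8.52 and 8.03 in negative arrays. Array 2 was the highest of both groups, and negative array 2 exceeded positive arrays 1 and 3. The difference was 0.26 (SE 0.19, limma adjusted p = 0.910), and its pairs differed by 0.34, 0.16 and 0.27. It was 0.13 without positive array 2 and 0.43 without negative array 2. Xpc, which acts beside Ddb2 in damage recognition, differed by 0.02 (SE 0.19), Polk, a translesion polymerase, by 0.01 (SE 0.17), and Rrm2b, the p53-induced subunit of ribonucleotide reductase, by -0.14 (SE 0.12), each with pairs of both signs.

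For most of these genes, as for most genes of the arrays, the means by replicate number ranged wider than the groups differed. A range over 3 means tends to exceed a single difference even where the number has no effect. The range of the 3 replicate-number means exceeded the difference between the groups for 23 of 30 genes (76.7%). It did so for 80.9% of all genes and 85.4% of the genes above the median level. The exceptions were Eda2r, Sesn2, Zmat3, Ei24, Mdm4, Rrm2b and Fas. For 17 of the 30 the highest mean was that of number 2, or 56.7%, against 34.6% of all genes and 47.5% of the genes above the median level. The widest ranges were those of Btg2 at 1.20, Pmaip1 at 1.11, Plk2 at 1.07, Sesn1 at 0.78 and Bcl2l11 at 0.73, the last with number 2 lowest.

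**Figure D4:**
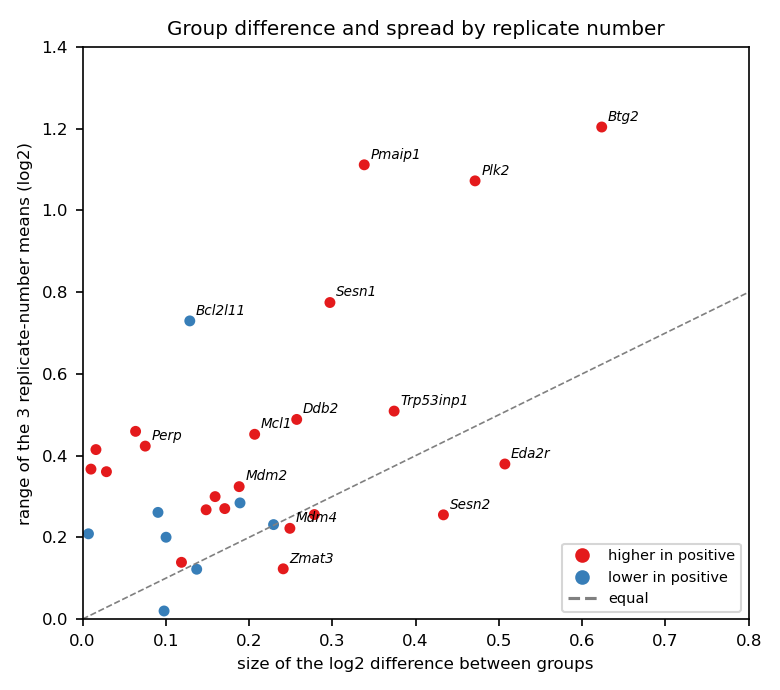
For each of the 30 genes, the x axis gives the size of the log2 difference between positive and negative arrays and the y axis the range of the means of replicate numbers 1, 2 and 3, both on the log2 scale. Points above the dashed line, 23 of 30, have a range between replicate numbers wider than the group difference, and Eda2r, Sesn2 and Zmat3 lie clearly below it.

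The sizes of the differences did not follow those of the two-cell-stage genes from pair to pair. Of 16 two-cell-stage genes 15 had their largest difference in pair 2, then pair 1, then pair 3. That order held for 7 of the 30 p53 and apoptosis genes (23.3%), as for 17.5% of all genes.

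Measured genes with a half-site in a promoter window are set here beside those with a window but no half-site. Of the 8 measured genes with a half-site 4 were higher in every pair, with a median difference of 0.13, and of the 14 without one 5 were, with a median of 0.10. This was not tested.

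Other genes of the pathway were read from lists taken by symbol. For comparison, 15.1% of all genes were higher and 23.7% lower in every pair. Among genes above the median level these shares were 22.1% and 15.2%. Of 23 other regulators of p53 and its family 14 were higher and 9 lower, 7 and 2 of them in every pair, with a median of 0.04. Atm, the kinase that signals DNA breaks, differed by 0.31 (SE 0.15) and was higher in every pair, by 0.38, 0.42 and 0.12. Trp73, a p53 relative, differed by 0.36 (SE 0.27) and Chek2, a checkpoint kinase that acts on p53, by -0.26 (SE 0.29), both with pairs of both signs. Of 33 other p53 targets 21 were higher and 12 lower, 10 and 3 of them in every pair, with a median of 0.07. Ephx1, a microsomal epoxide hydrolase, had the largest difference of these, 0.67 (SE 0.24). It was higher by 1.20 in pair 1 and 0.82 in pair 3, and in pair 2 the arrays were level, at -0.0015. Igfbp3, a binding protein of insulin-like growth factors, and Thbs1, thrombospondin, differed by 0.47 (SE 0.73) and -0.41 (SE 0.89), and both were highest in the arrays numbered 2.

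Other genes of mitochondrial and caspase apoptosis showed no lean, with 15 of 30 higher and 15 lower, 4 and 6 of them in every pair, and a median of -0.0005. Cycs, cytochrome c, differed by 0.25 (SE 0.12), and its pairs by 0.16, 0.28 and 0.30. Bcl2, a pro-survival gene, differed by -0.25 (SE 0.19), almost wholly in pair 2 at -0.72, and Casp8, the initiator caspase of death receptors, by 0.26 (SE 0.57). In limma 0 genes of these 3 lists passed. At an unadjusted p under 0.05, 1 of the other targets was higher and 1 lower, with 0 in the other lists. By that rule 1.95% of all genes were higher and 2.46% lower. With the block, 4 targets were higher and 1 lower, and 2 regulators and 1 apoptosis gene were higher. The shares of all genes with the block were 5.4% higher and 6.61% lower.

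Markers of other cells that an ES culture can hold were read beside these genes, where 12007 of all 19938 genes were lower in positive arrays and 0 marker genes passed the limma test. Fibroblast feeder genes were lower for 14 of 18, with a median of -0.19 and mean levels of 7.06 to 7.75 in positive and 7.40 to 7.86 in negative arrays. Their medians in pairs 1, 2 and 3 were -0.21, -0.13 and -0.28. Primitive endoderm genes were lower for 10 of 12, with a median of -0.32 and mean levels of 7.76 to 8.03 and 8.06 to 8.35. Their median was -0.52 in pair 1 and -0.45 in pair 3, but 0.06 in pair 2, where 7 of 12 were higher. Trophectoderm and simple epithelium genes were lower for 7 of 11, a share near that of all genes, with a median of -0.09 and mean levels of 8.71 to 9.48 and 8.88 to 9.43. In pairs 1 and 2, 6 of these 11 were higher, and in pair 3, 2 were. Feeder and epithelial genes were highest in the arrays numbered 2 of both groups, as Btg2, Plk2 and Sesn1 were, and their part in these values was not tested.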

How the data were processed

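RNA of 6 samples of sorted mouse ES cells was measured on Affymetrix whole-transcript arrays, 1 array per sample, 3 in each group. The deposited values are log2 expression per probeset, made by the authors with RMA in Affymetrix Expression Console, per the submitters' processing notes. RMA corrects background, normalizes quantiles between arrays and can understate differences of dim probesets. Neither software versions nor a genome build is named in the labels or files.

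The platform annotation gave 1 symbol to 21789 of 35556 probesets, several to 1621, and did not list 12146. Of the single-symbol probesets 21698 matched RefSeq genes (GRCm38.p6) by identifier. The probeset with the highest mean over 6 arrays stood for a gene, each measured gene of the list had 1, and the 19938 genes entered limma 3.58.1 (R 4.3.3; lmFit and eBayes, two-sided, Benjamini-Hochberg adjustment over all genes, threshold 0.05), checked on simulated data. Groups and replicate numbers came from sample titles. Nothing says that samples of a group were separate cultures, so that p-values speak only for the spread of these samples, possibly technical, and the number of arrays limits precision.

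Deviations from the group means correlated between same-numbered positive and negative arrays at r = 0.547, 0.553 and 0.457 for numbers 1, 2 and 3 across genes, so the numbers were taken as pairs and the fit with the replicate number as a block is given where it alters a count. The genes, lists and tests were chosen with earlier results of these data known. All measured genes of the list were named. Values on every array are given for Mdm2, Mdm4, the probeset of Cdkn1a, genes without overlap and the 10 largest differences, and for Bbc3, chosen after its values were seen. Of each other pathway list, the 3 largest differences are named. Promoter windows came from RefSeq. Alternatives were the block, leaving out arrays, median centring, a second quantile normalization, the mean of a gene's probesets, no dim genes (lowest 30%), array weights and all probesets.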

Additional observations from a re-analysis of the deposited data

How the results depend on the processing

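No gene of the list passed the limma test under any of the 14 alternatives, and 0 of all genes did, so a call could not be lost. The smallest adjusted p of a listed gene under any of them was 0.0673. With the replicate block 2394 genes had an unadjusted p under 0.05 against 878 without it, and 4851 with array weights, where 12 listed genes were higher and 3 lower at that p. Genes of the list without overlap numbered 4 to 12 higher and 0 to 3 lower when 1 array was left out. Without both arrays numbered 2, when groups of 2 are compared, they numbered 15 higher and 5 lower. Smaller groups overlap less often for any gene, and the shares over all genes under these settings were not computed, so these counts are not read further. Genes lower in every pair numbered 2 to 5 when 1 array was left out (over the remaining 2 pairs) and 5 without both arrays numbered 2, against 1. Those higher in every pair numbered 14 to 19 and 19 in these settings, against 13. With median centring 2 were lower and 13 higher, and with a second quantile normalization 4 and 14. Over fewer pairs more genes keep 1 sign, and shares over all genes were not computed here either. The median over the list lay between 0.08 and 0.22 when 1 array was left out.

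Of 419 values of single genes under the alternatives 38 changed sign, in 12 of the 30 genes, none of them among the 13 higher in every pair. The block, the mean of a gene's probesets, the dim filter and all probesets could not change these differences. Their values are among the 419 and say nothing on how stable the signs are. When 1 array was left out, differences ranged from -0.092 to 0.066 for Bcl2l1, -0.19 to 0.17 for Xpc, -0.13 to 0.16 for Polk, -0.075 to 0.15 for Apaf1, -0.16 to 0.0061 for Casp9, -0.10 to 0.22 for Perp, -0.12 to 0.16 for Aen, -0.32 to 0.68 for Pmaip1, -0.32 to 0.23 for Bcl2l11, -0.017 to 0.35 for Mcl1 and -0.18 to 0.066 for Pidd1. Without both arrays numbered 2, Gadd45a differed by 0.037, Pmaip1 by -0.26, Bcl2l11 by 0.11, Bcl2l1 by 0.075, Pidd1 by 0.11, Aen by -0.028 and Xpc by -0.14. With a second quantile normalization Xpc differed by -0.011, Polk by -0.027 and Apaf1 by -0.013. With array weights Gadd45a differed by 0.10, Pmaip1 by -0.16, Bcl2l11 by 0.0083, Bcl2l1 by 0.16, Pidd1 by 0.10, Xpc by -0.10 and Polk by -0.0001. The cause was not tested. Fas was left out with the dimmest genes.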
